A study of Mus musculus with 4 samples.

Results

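Replication-dependent histone genes supply the core histones H2A, H2B, H3 and H4 and the linker histone H1 that package newly copied DNA, and they are known for high expression in S phase of dividing cells. Most of their mRNAs end in a conserved stem-loop in place of a poly(A) tail, so they are captured in total RNA depleted of ribosomal RNA but are largely lost in libraries selected for poly(A). Many copies of each gene lie in clusters and encode nearly or fully identical proteins, and a few members of the clusters, among them Hist1h1t, Hist1h2aa and Hist1h2ba, are known as histone genes of male germ cells.

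Of 21878 genes with mRNA values in mouse C3H10T1/2 cells, 67 carried a symbol of the Hist1, Hist2, Hist3 or Hist4 cluster, and these 67 are described here. They comprised 6 genes for H1, 18 for H2A, 18 for H2B, 12 for H3 and 13 for H4. By cluster, 54 were Hist1 genes on chromosome 13, 10 were Hist2 genes on chromosome 3, 2 were Hist3 genes on chromosome 11, and Hist4h4 on chromosome 6 was the 1 gene of Hist4. Their 74 RefSeq transcripts were summed per gene. A single transcript was listed for 62 of the genes, and 5 had more.

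The C3H10T1/2 line is of mouse mesenchymal origin and can differentiate along several lineages. The agent 5-AZA (5-azacytidine), an analogue of cytidine, lowers DNA methylation once it is built into DNA. Stranded libraries of ribosome-depleted total RNA were compared between 2 untreated samples (replicates 1 and 2) and 2 samples (replicates 101 and 102) that had been exposed to 20 µmol/L 5-AZA for 72 h and then kept for 21 days in fresh medium. For the untreated samples the labels give no time in culture, so treatment and culture time cannot be told apart. All 4 samples are the same line, and the labels do not say whether samples of a group came from separate cultures, so p-values measure the spread between these samples, which may be technical. FPKM values (fragments scaled to transcript length and to sequencing depth) summed to 328410 to 361664 per sample over all genes, and 10298 to 11124 genes reached 1 FPKM. Read counts were not part of the values, so the depth behind each gene is unknown.

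Histone genes were among the abundant transcripts of every sample. Their summed level was 12123 FPKM in untreated replicate 1, 9171 in untreated replicate 2, 9430 in 5-AZA replicate 101 and 9429 in 5-AZA replicate 102, or 3.52%, 2.74%, 2.87% and 2.61% of all FPKM. Untreated replicate 1 stood above the other 3 samples, which lay close together. A level of at least 1 FPKM was held by 60, 61, 64 and 64 of the 67 genes in the same order of samples. Averaged over the 4 samples, 58 genes had at least 10 FPKM and 38 at least 100 FPKM. Among the 58, mean levels ran from 14.4 to 785 FPKM with a median of 152, and the 5 most abundant genes held 25.1% of the histone sum.

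**Figure D1:**
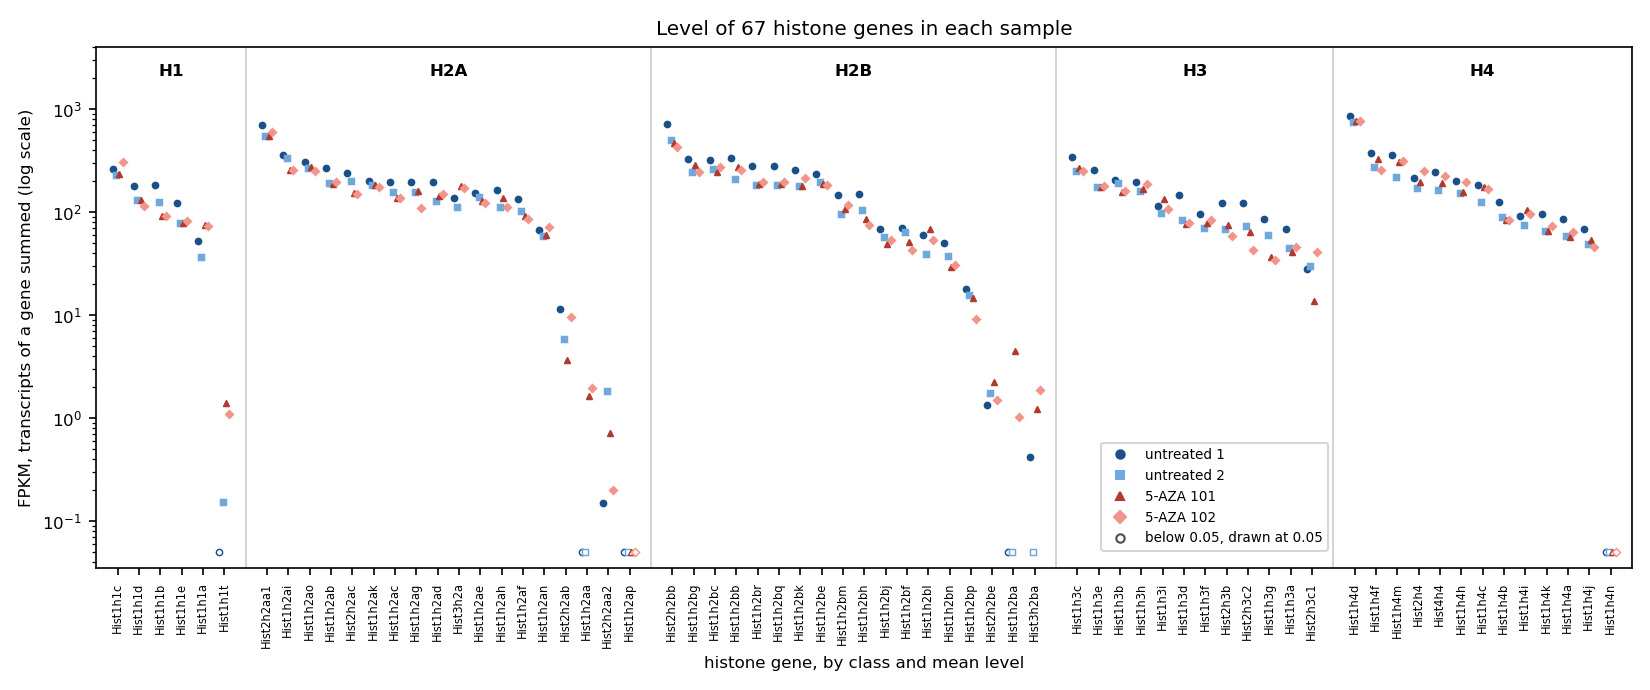
Level of each of the 67 histone genes in FPKM (log axis), grouped by class and ordered by mean level, with 1 point per sample and open points at 0.05 for values below that. The high members of all 5 classes lie at similar levels in the 4 samples, and the points that separate the groups most widely belong to genes near or below 5 FPKM.

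The most abundant member was Hist1h4d, an H4 gene, with 865 and 756 FPKM in untreated replicates 1 and 2 and 757 and 763 FPKM in 5-AZA replicates 101 and 102. Hist2h2aa1, an H2A gene, followed with 704, 552, 551 and 591 FPKM. The H2B gene Hist2h2bb had 717 and 501 FPKM in the untreated samples and 465 and 424 FPKM in the 5-AZA samples. Only for Hist2h2bb among these 3 genes did the groups not overlap, and its log2 fold change of -0.43 (SE 0.16) was not called (adjusted p = 0.0911, limma). Hist1h1c, the most abundant H1 gene, and Hist1h3c, the most abundant H3 gene, had means of 258 and 278 FPKM. FPKM is scaled to length, so these levels share a scale between genes. For near-identical copies such as Hist2h2aa1 and Hist2h2aa2 the split of reads is an estimate, so the order of single genes is uncertain.

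Promoter sequences of these abundant members are printed to show the short elements that histone promoters carry, as RefSeq gives them for build GRCm38.p6. Each is the stretch of 170 bases that ends just before the start of transcription, 5′ to 3′ on the gene's strand. Capitals mark TATAAA, the core TATA element, CCAAT, the CCAAT box, and ATTTGCAT, the octamer, and a match on the opposite strand reads TTTATA for the TATA element, ATTGG for the CCAAT box and ATGCAAAT for the octamer.
Hist1h4d (chr13:23581398-23581567, plus strand): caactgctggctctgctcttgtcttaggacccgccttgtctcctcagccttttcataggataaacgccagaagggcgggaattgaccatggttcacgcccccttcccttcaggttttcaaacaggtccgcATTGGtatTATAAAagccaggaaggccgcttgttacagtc
Hist2h2bb (chr3:96269530-96269699, plus strand): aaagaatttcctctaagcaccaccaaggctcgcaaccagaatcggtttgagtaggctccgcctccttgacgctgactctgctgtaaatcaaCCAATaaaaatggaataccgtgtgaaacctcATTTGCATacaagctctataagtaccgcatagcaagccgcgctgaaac
Hist1h4d carried a TATA element at positions -32 to -27 from its start and a CCAAT box on the opposite strand at -40 to -36. Hist2h2bb carried an octamer at -48 to -41 and a CCAAT box at -79 to -75.

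Over windows of 300 bases (250 before and 50 after the start), 63 promoters of 62 of the 67 genes were found among 32851 RefSeq promoters, and the elements were searched on both strands. CCAAT was present in all 6 H1, 18 H2A, 17 H2B and 10 H3 promoters but in 3 of 12 H4 promoters, against 37.4% of all promoters. TATAAA was present in 4 of 6 H1, 11 of 18 H2A, 8 of 17 H2B, 4 of 10 H3 and 8 of 12 H4 promoters, against 13.6% of all. The octamer was found in 7 of 18 H2A and 7 of 17 H2B promoters and in 0 of the H1, H3 and H4 promoters, against 1.74% of all. A match describes the letters only, and its absence says no more than that these letters are not in this window. Hist2h4, Hist2h2be, Hist1h3f, Hist1h3a and Hist1h2bc had no entry.

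The 5 classes kept similar proportions in the 4 samples. H2A genes summed to 3325 and 2705 FPKM in untreated replicates 1 and 2 and to 2640 and 2580 FPKM in 5-AZA replicates 101 and 102. The H2B genes summed to 3310, 2367, 2417 and 2376 FPKM, and the H4 genes to 2911, 2194, 2474 and 2532 FPKM. In each class the highest sum was that of untreated replicate 1. H3 genes summed to 1779 and 1308 FPKM in the untreated and 1287 and 1271 FPKM in the 5-AZA samples, and H1 genes to 799, 596, 613 and 669 FPKM. For H2A and H3 both 5-AZA sums lay below both untreated sums, while for H1, H2B and H4 the groups overlapped. As shares of all histone FPKM, H4 took 24.0% and 23.9% in the untreated and 26.2% and 26.9% in the 5-AZA samples, and H3 took 14.7% and 14.3% against 13.7% and 13.5%.

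**Figure D2:**
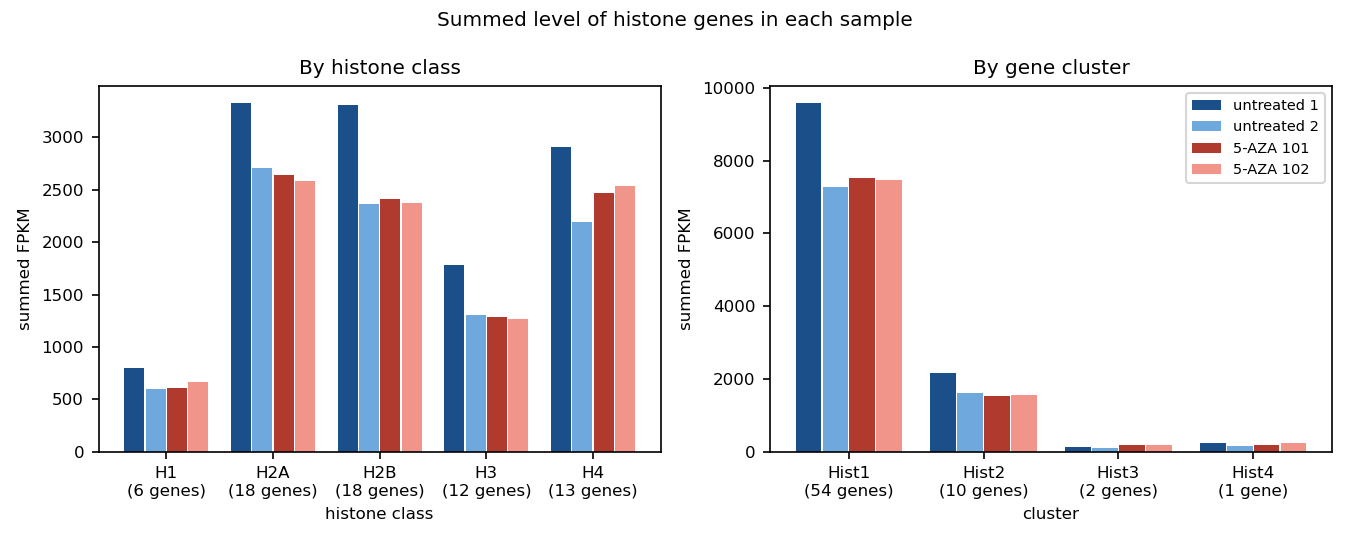
Summed FPKM of the histone genes of each class (left) and each gene cluster (right), with 1 bar per sample and axes starting at 0. Untreated replicate 1 has the highest bar in every class and in the Hist1, Hist2 and Hist4 clusters, and the 5-AZA bars exceed both untreated bars only for Hist3.

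The log2 ratio of the group means (5-AZA over untreated) was -0.12 for H1, -0.21 for H2A, -0.24 for H2B, -0.27 for H3 and -0.028 for H4, given with no test. Without untreated replicate 1 these ratios were 0.10, -0.052, 0.018, -0.032 and 0.19. H4 had the highest and H1 the next ratio in both comparisons, and the signs of H1, H2B and H4 changed with that 1 sample. In the same way the Hist1 sum was 9576 and 7289 FPKM in the untreated and 7537 and 7460 FPKM in the 5-AZA samples (log2 ratio -0.17, and 0.041 without untreated replicate 1). The Hist2 sum was 2162, 1606, 1523 and 1572 FPKM (-0.28, and -0.053 without it). The Hist3 sum was 138 and 112 FPKM in the untreated and 179 and 172 FPKM in the 5-AZA samples (0.49, and 0.65 without it), and was the only cluster sum higher in both 5-AZA samples than in both untreated samples.

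Within the Hist1 cluster, gaps of over 100 kb between neighbouring members in the RefSeq order divided it into 4 groups. The group of 29 genes from Hist1h4h to Hist1h1a summed to 6016, 4595, 4717 and 4701 FPKM (log2 ratio -0.17). The group of 18 genes from Hist1h2bl to Hist1h2br gave 2784, 2116, 2183 and 2170 FPKM (-0.17), and the 5 genes from Hist1h2ah to Hist1h2bj gave 777, 578, 630 and 586 FPKM (-0.15). These 3 groups thus had nearly equal ratios, each with its highest sum in untreated replicate 1. The remaining group held Hist1h2ba and Hist1h2aa, with 0 members above 1e-10 FPKM in the untreated samples.

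The difference between the untreated samples was shared by nearly every abundant histone gene. Of the 58 genes with a mean of at least 10 FPKM, 57 were higher in untreated replicate 1 than in untreated replicate 2, with a median ratio of 1.37 (range 0.927 to 1.79). Over all 5104 genes at that level, 66.9% were higher in untreated replicate 1 and the median ratio was 1.04. Between the 5-AZA samples, 28 of the 58 were higher in replicate 102 and the median ratio was 0.996. Both 5-AZA values lay below untreated replicate 1 in 49 of the 58 genes and above it in 3. Against untreated replicate 2 they lay below in 20 and above in 25. The sum of 28 genes of S phase and DNA replication was likewise highest in untreated replicate 1 (408, 343, 331 and 346 FPKM), and its part in the histone levels was not tested. In bulk RNA, fewer cells in S phase and less histone mRNA per cell cannot be told apart.

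To ask which histone genes differed after 5-AZA, log2(FPKM + 0.1) was fitted with limma over all 13199 genes with a mean of at least 0.1 FPKM, and a gene was called where its Benjamini-Hochberg adjusted p was below 0.05 and its change over 2-fold. Of the 67 histone genes 65 were tested, and Hist1h2ap and Hist1h4n were below the limit. Called higher were 4 of the 65, Hist1h1t, Hist1h2aa, Hist1h2ba and Hist3h2ba, against 13.1% of all genes tested, and called lower was 1, Hist1h3g, against 1.32%. After quantile normalization the split over all genes was 1041 higher and 886 lower in place of 1724 and 174, and that of the histone genes 3 and 1. Centring on the median of the histone genes, an alternative chosen after seeing the data, gave 4 and 0. All 4 genes called higher had means below 2 FPKM, and Hist1h1t, Hist1h2aa and Hist1h2ba passed the limit on low values only through their 5-AZA samples, so a difference was fixed for them by that limit. A further 10 passed the adjusted p without reaching 2-fold, 2 higher and 8 lower, and 50 did not pass. At any fold, 18.6% of all genes were past the adjusted p as higher and 5.93% as lower, and of the 65 histone genes 6 were higher and 9 lower.

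The 58 genes with at least 10 FPKM had log2 fold changes between -1.02 and 0.77. The median over the 65 genes was -0.20, beside 0.047 over all genes tested, with 47 below 0 and 18 above. Both 5-AZA values exceeded both untreated values in 7 of the 65 (36.8% of all genes tested) and lay below both in 20 (25.4%), and the groups overlapped in 38. Leaving out untreated replicate 1 moved the median of the histone genes to 0.036, and leaving out untreated replicate 2 moved it to -0.37.

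**Figure D3:**
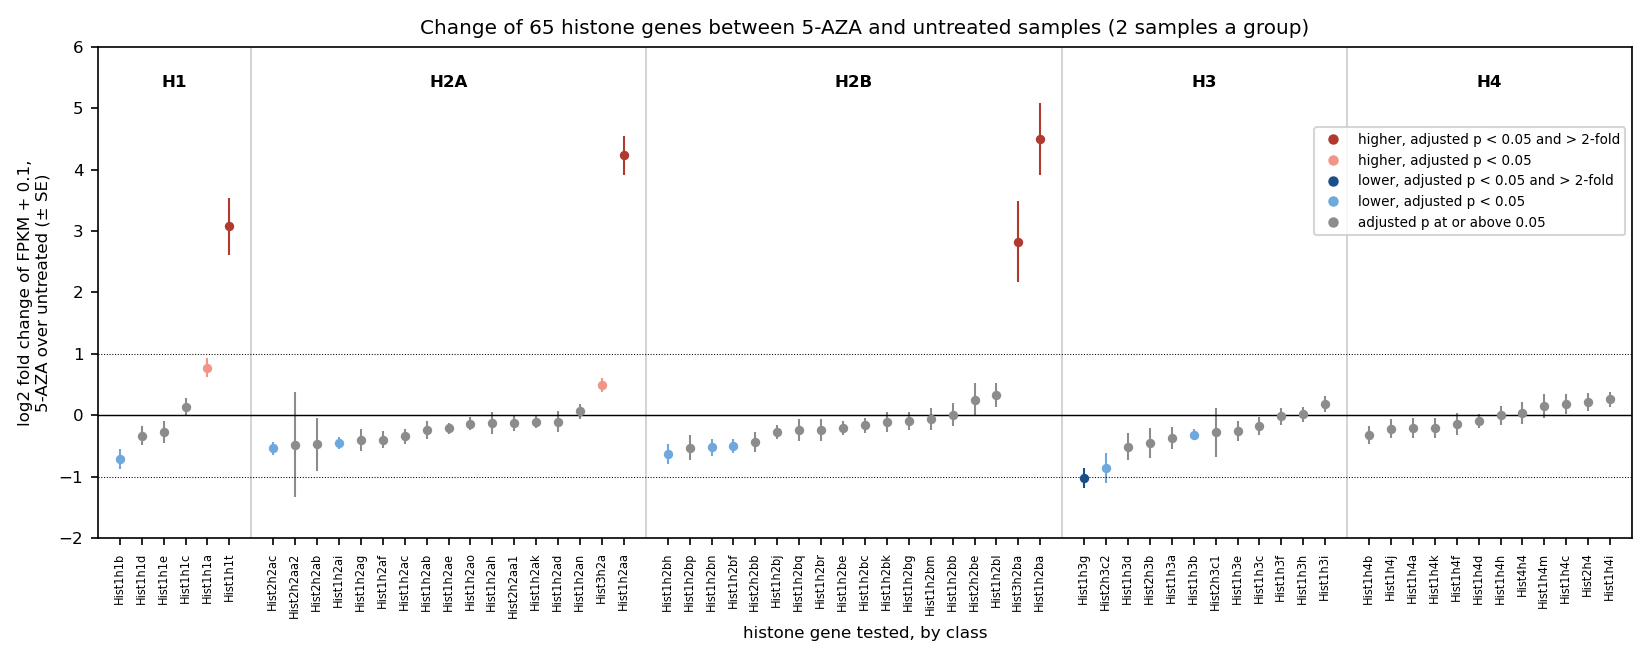
Log2 fold change of FPKM + 0.1 between 5-AZA and untreated samples for the 65 histone genes tested, with the standard error of the limma fit, ordered within each class. Hist1h1t, Hist1h2aa, Hist1h2ba and Hist3h2ba stand above 2 on the log2 scale, Hist1h3g lies just beyond -1, and no H4 gene is coloured as past the adjusted p.

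Hist1h2aa and Hist1h2ba, the H2A and H2B genes of spermatogenic cells, lie head to head with 280 bases between their starts, so that their 300-base promoter windows share 220 bases. Both are printed because they share this stretch and were both called higher, with the same capitals as above.
Hist1h2aa (chr13:23934267-23934436, plus strand): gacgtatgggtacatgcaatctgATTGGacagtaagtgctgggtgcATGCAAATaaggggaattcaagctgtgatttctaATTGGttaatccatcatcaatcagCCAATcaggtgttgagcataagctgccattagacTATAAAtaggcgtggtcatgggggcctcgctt
Hist1h2ba (chr13:23934157-23934326, minus strand): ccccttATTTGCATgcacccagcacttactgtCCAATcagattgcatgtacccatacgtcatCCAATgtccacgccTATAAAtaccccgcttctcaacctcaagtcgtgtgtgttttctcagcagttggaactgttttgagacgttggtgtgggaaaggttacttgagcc
Hist1h2aa was listed below 1e-10 FPKM in both untreated samples and at 1.63 and 1.95 FPKM in 5-AZA replicates 101 and 102. Hist1h2ba was also below 1e-10 FPKM in both untreated samples and at 4.49 and 1.02 FPKM in the 5-AZA samples. Both genes were thus measurable only in the 5-AZA samples, at a few FPKM. Between the 5-AZA samples they differed in direction, with Hist1h2aa higher in replicate 102 and Hist1h2ba higher in replicate 101. On the log2 scale with the pseudocount the differences were 4.23 (SE 0.32, adjusted p = 2.7e-05, limma) for Hist1h2aa and 4.50 (SE 0.58, adjusted p = 6.19e-04, limma) for Hist1h2ba. These sizes depend on the pseudocount and are not folds of the RNA, and over the alternatives they ran from 1.48 to 7.49 for Hist1h2aa and from 1.74 to 7.75 for Hist1h2ba. Both genes passed the limit on low values only through their 5-AZA samples. A difference was thus fixed for them, and their calls are not counted as a result. In the fit without that limit Hist1h2aa kept its call and Hist1h2ba lost it. Each printed window held its own match to the letters TATAAA, at -32 to -27 for Hist1h2aa and at -94 to -89 for Hist1h2ba. The octamer and 1 CCAAT box were the same bases in both windows, read from opposite strands. The 300-base windows of Hist1h2aa and Hist1h2ba held 8 and 7 CG dinucleotides, where the median was 11 over the histone promoters (range 3 to 41) and 7 over all promoters. DNA methylation was not measured in these libraries.

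Hist1h1t, the H1 gene of spermatocytes, lies in the Hist1 group from Hist1h4h to Hist1h1a, and its promoter is shown with the same capitals.
Hist1h1t (chr13:23695641-23695810, plus strand): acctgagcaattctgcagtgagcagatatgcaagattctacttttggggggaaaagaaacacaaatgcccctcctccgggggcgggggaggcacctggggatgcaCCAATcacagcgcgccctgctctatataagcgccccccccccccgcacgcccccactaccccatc
It was listed at 0 and 0.153 FPKM in untreated replicates 1 and 2 and at 1.39 and 1.10 FPKM in 5-AZA replicates 101 and 102. The 5-AZA values both lay above the untreated values, with a difference of 3.08 on the log2 scale (SE 0.46, adjusted p = 0.00136, limma). Hist1h1t passed the limit on low values only through its 5-AZA samples. A difference was thus fixed for it, and its call is not counted as a result. In the fit without that limit the call was lost (adjusted p = 0.0823, limma). It was also lost without 5-AZA replicate 101 (2.92) and without 5-AZA replicate 102 (3.23). Its printed window held a CCAAT box at -65 to -61 and no exact match to the letters TATAAA or ATTTGCAT.

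Beside these, 3 of 7 marker genes of testis germ cells passed the limit on low values, each through its 5-AZA values alone, so their calls are not counted as a result for the list. Dazl was listed at 0 in both untreated samples and at 5.48 and 5.74 FPKM in the 5-AZA samples, and Sycp3 at 0 and 0.0426 against 14.3 and 17.5 FPKM. Ddx4 was at 0.0659 and 0 against 0.578 and 0.917 FPKM. The markers of later sperm development, Prm1, Prm2, Tnp1 and Acrv1, were listed at 0 in all 4 samples. The summed level of the list was 0.0659 and 0.0426 FPKM in the untreated and 20.4 and 24.2 FPKM in the 5-AZA samples, and its part in the levels of the germ cell histone genes was not tested.

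The Hist3 locus on chromosome 11 was the other site with a called rise. Hist3h2ba, an H2B gene, was listed at 0.415 FPKM in untreated replicate 1, below 1e-10 FPKM in untreated replicate 2, and at 1.21 and 1.88 FPKM in 5-AZA replicates 101 and 102. Its difference was 2.83 on the log2 scale (SE 0.66, adjusted p = 0.0144, limma), and the call was lost in 6 of 12 alternatives, among them without 5-AZA replicate 101 (3.12) and without 5-AZA replicate 102 (2.53), with adjusted p up to 0.33. Hist3h2a, the H2A gene of the same locus, was far more abundant, at 137 and 112 FPKM in the untreated and 178 and 170 FPKM in the 5-AZA samples. Both 5-AZA values were the higher, and the log2 fold change of 0.49 (SE 0.12) passed the adjusted p (0.0157, limma) but not the 2-fold limit.
Hist3h2ba (chr11:58948741-58948910, plus strand): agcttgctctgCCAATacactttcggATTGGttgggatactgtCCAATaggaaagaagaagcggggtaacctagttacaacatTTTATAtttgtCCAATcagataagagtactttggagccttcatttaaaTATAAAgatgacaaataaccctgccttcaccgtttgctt
The printed promoter of Hist3h2ba, with the same capitals, held 4 CCAAT boxes counted on both strands. The letters TATAAA matched at -39 to -34 and, on the opposite strand, at -87 to -82. Without untreated replicate 1 the Hist3 sum had a log2 ratio of 0.65.

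Hist1h3g, an H3 gene, was the 1 member called lower. It had 86.4 and 59.5 FPKM in untreated replicates 1 and 2 and 36.2 and 34.5 FPKM in 5-AZA replicates 101 and 102, so that the groups did not overlap. The log2 fold change was -1.02 (SE 0.16, adjusted p = 0.00195, limma), just past the 2-fold limit. Its call was lost in 5 of 13 alternatives. With a sample left out, these were without untreated replicate 1 (-0.75), without 5-AZA replicate 101 (-1.05) and without 5-AZA replicate 102 (-0.98). The call was also lost without a limit on low values (-1.02, adjusted p = 0.105, limma). After centring on the median of the histone genes it was lost as well (-0.90, adjusted p = 0.059, limma). The printed window is shown because it held a CCAAT box but no exact match to the letters TATAAA.
Hist1h3g (chr13:23535248-23535417, plus strand): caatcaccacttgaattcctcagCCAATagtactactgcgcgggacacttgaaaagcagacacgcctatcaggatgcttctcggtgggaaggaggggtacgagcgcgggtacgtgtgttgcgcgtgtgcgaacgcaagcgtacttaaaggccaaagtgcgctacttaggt

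The 8 genes that were lower past the adjusted p but changed less than 2-fold came from H1 (1), H2A (2), H2B (3) and H3 (2). Hist2h3c2, an H3 gene, had 123 and 73.6 FPKM in the untreated and 64.1 and 42.7 FPKM in the 5-AZA samples, a log2 fold change of -0.86 (SE 0.25, adjusted p = 0.0348, limma). Without untreated replicate 2 it was called (-1.24). Hist2h2ac, an H2A gene of the same cluster, had 240 and 202 FPKM in the untreated and 152 and 150 FPKM in the 5-AZA samples (log2 fold change -0.54, adjusted p = 0.00712, limma). Both genes were lower in both 5-AZA samples than in either untreated sample. Hist1h2bh had 149 and 105 against 85.5 and 75.5 FPKM (-0.63, adjusted p = 0.0194, limma). Hist1h2ai had 358 and 336 against 254 and 254 FPKM (-0.45, adjusted p = 0.00885, limma), and was among the members whose untreated samples differed least from each other. Hist1h3b had 202 and 193 against 156 and 161 FPKM (-0.32, adjusted p = 0.0373, limma). Hist1h2bn (-0.52), Hist1h2bf (-0.51) and the H1 gene Hist1h1b completed the set. How many passed the adjusted p depended on single samples, with 8 higher and 2 lower without untreated replicate 1, 5 and 21 without untreated replicate 2, 2 and 0 without 5-AZA replicate 101, and 2 and 1 without 5-AZA replicate 102. After centring on the median of the histone genes it was 4 and 0.

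Among the linker histone genes, 1 passed the adjusted p in each direction beside Hist1h1t. Hist1h1a had 51.7 and 36.5 FPKM in untreated replicates 1 and 2 and 75.5 and 73.1 FPKM in 5-AZA replicates 101 and 102. Its groups did not overlap, and the log2 fold change of 0.77 (SE 0.15, adjusted p = 0.00657, limma) stayed under 2-fold but reached 1.03 without untreated replicate 1, where it was called. Hist1h1b went the other way, with 182 and 125 FPKM in the untreated and 92.1 and 91.6 FPKM in the 5-AZA samples (log2 fold change -0.71, SE 0.16, adjusted p = 0.0123, limma). Hist1h1c had 263 and 227 against 236 and 306 FPKM (0.14, SE 0.14, adjusted p = 0.537, limma). Hist1h1d had 181 and 131 against 130 and 115 FPKM (-0.34, SE 0.15, adjusted p = 0.152, limma), and Hist1h1e had 122 and 77.4 against 78.3 and 82.7 FPKM (-0.27, SE 0.18, adjusted p = 0.34, limma).

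As shares of the H1 sum, which do not depend on how a sample is scaled, Hist1h1a made up 6.48% and 6.11% in the untreated and 12.3% and 10.9% in the 5-AZA samples. Hist1h1b made up 22.8% and 20.9% against 15.0% and 13.7%. The groups overlapped for none of the H1 genes, and as parts of a whole the shares are not independent of each other. Hist1h1c made up 32.9% and 38.1% against 38.5% and 45.8%, Hist1h1d 22.6% and 21.9% against 21.2% and 17.1%, and Hist1h1e 15.2% and 13.0% against 12.8% and 12.4%. Hist1h1t reached 0.227% and 0.165% in the 5-AZA samples. With 2 samples against 2, a two-sided exact permutation test of a share cannot go below p = 0.333, so the shares are given as values.

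**Figure D4:**
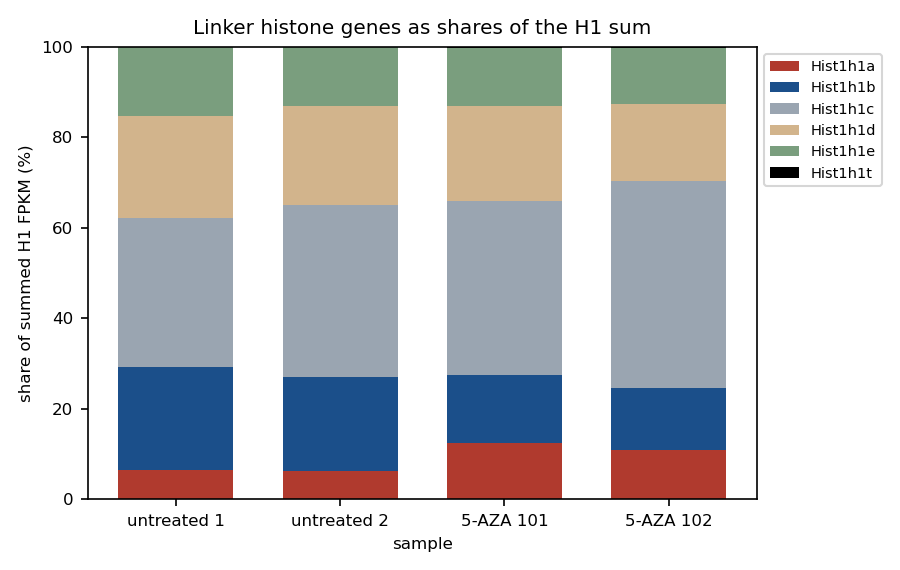
Share of the summed H1 FPKM (%) held by each H1 gene in each sample, stacked to the whole. The Hist1h1a segment is 6.11% to 6.48% in the untreated and 10.9% to 12.3% in the 5-AZA samples, the Hist1h1b segment is narrower in both 5-AZA samples, and Hist1h1t is too small to be seen.

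H4 was the class with the narrowest range of log2 fold changes, from -0.32 (Hist1h4b) to 0.26 (Hist1h4i). Of its 12 tested genes 0 passed the adjusted p (limma, 0 at an unadjusted p below 0.05). Over all genes tested, 18.6% passed the adjusted p as higher and 5.93% as lower. Hist1h4b had 124 and 89.2 FPKM in the untreated and 83.7 and 84.1 FPKM in the 5-AZA samples (adjusted p = 0.152, limma). Hist1h4i had 92.2 and 74.8 against 104 and 94.7 FPKM (adjusted p = 0.168, limma) and was the only H4 gene with both 5-AZA values above both untreated values. Hist1h4f, the second H4 gene by level, had 377, 271, 329 and 253 FPKM and Hist1h4m had 359, 219, 306 and 315 FPKM in the order of samples used above. In both genes the groups overlapped. The H4 genes outside Hist1 were Hist2h4, with 215 and 170 against 197 and 252 FPKM, and Hist4h4, with 247 and 165 against 191 and 225 FPKM, and neither passed (adjusted p = 0.351 and 0.904, limma).

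Among the other H3 genes, Hist1h3c had 339 and 253 FPKM in the untreated and 267 and 252 FPKM in the 5-AZA samples (log2 fold change -0.18), and Hist1h3e had 258 and 176 against 177 and 180 FPKM (-0.26). Hist1h3i had the highest log2 fold change of the class, 0.18, with 114 and 98.0 against 134 and 107 FPKM. None of these 3 passed the adjusted p, and their groups overlapped. Hist2h3b had 122 and 67.9 against 74.7 and 59.1 FPKM (-0.45, adjusted p = 0.221, limma). Hist2h3c1 differed between the 5-AZA samples, at 13.7 FPKM in replicate 101 and 41.2 in replicate 102 beside 27.8 and 30.0 in the untreated samples, and was called lower without replicate 102 (-1.07).

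The abundant H2B genes Hist1h2bg, with 328 and 243 FPKM in the untreated and 285 and 244 FPKM in the 5-AZA samples, and Hist1h2bc, with 318 and 260 against 242 and 272 FPKM, had log2 fold changes of -0.10 and -0.17 that did not pass. The low Hist2 genes varied within the groups. Hist2h2ab had 11.5 and 5.90 against 3.62 and 9.55 FPKM, Hist2h2be had 1.33 and 1.74 against 2.26 and 1.49 FPKM, and Hist2h2aa2 had 0.149 and 1.82 against 0.720 and 0.1998 FPKM. In each of these the groups overlapped and the adjusted p was not passed, though Hist2h2aa2 was called lower without untreated replicate 1 (-1.95). The H2A genes Hist2h2aa1 (-0.13) and Hist1h2ao (-0.14, with 307 and 268 against 273 and 249 FPKM) did not pass.

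Near-identical copies limit what single members can show, because the assignment of shared reads to a copy is an estimate. Hist1h2bq and Hist1h2br were listed with equal values in all 4 samples (282, 184, 187 and 197 FPKM), and their 300-base promoters were the same. Hist1h2ap stayed at or below 2.81e-09 FPKM while Hist1h2ao reached 307 FPKM. Hist1h4n stayed at or below 3.06e-04 FPKM while Hist1h4m reached 359 FPKM, and Hist2h2aa2 stayed at or below 1.82 FPKM while Hist2h2aa1 reached 704 FPKM. The split within such pairs is uncertain, and a low value of a copy does not show that it was silent.

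Hist1h2bc is an H2B gene with 2 listed transcripts. Variant 1 had 63.6 and 75.7 FPKM in the untreated and 93.0 and 105 FPKM in the 5-AZA samples, and variant 2 had 255 and 184 against 149 and 167 FPKM. Variant 1 was higher and variant 2 lower in both 5-AZA samples, and variant 1 made up 20.0% and 29.1% of the gene in the untreated and 38.4% and 38.6% in the 5-AZA samples. In a fit over single transcripts the log2 fold changes were 0.51 (SE 0.12, adjusted p = 0.127, limma) and -0.46 (SE 0.17, adjusted p = 0.268, limma), so neither was called.

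Genes that make, process and use histone mRNAs and proteins were counted beside the shares over all genes tested, 13.1% called higher and 1.32% called lower. The adjusted p was passed at any fold by 18.6% of all genes as higher and 5.93% as lower. No share over all genes was taken for the unadjusted p. Of 11 genes of histone gene transcription 1 was called higher and 0 lower (median log2 fold change -0.10), and 2 more, Ccna2 and E2f1, passed the adjusted p as lower without reaching 2-fold. Npat, the coactivator of histone genes at the G1/S transition, had 7.32 and 6.93 FPKM in the untreated and 7.09 and 6.17 FPKM in the 5-AZA samples. Casp8ap2, its partner at histone loci, had 10.3 and 10.04 against 9.78 and 9.96 FPKM. Hinfp, which binds H4 promoters, had 3.24 and 3.34 against 2.73 and 3.36 FPKM, and Pou2f1, which binds the octamer, had 3.55 and 3.62 against 3.07 and 3.04 FPKM. None of these 4 passed the adjusted p. E2f2, an S-phase transcription factor, rose from 0.276 and 0.114 to 0.701 and 0.839 FPKM (log2 difference 1.61, SE 0.37, adjusted p = 0.0128, limma), and its call was lost without untreated replicate 2 (1.21), without 5-AZA replicate 101 (1.73) and without 5-AZA replicate 102 (1.498), with adjusted p up to 0.307 over the alternatives.

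Of 15 tested genes of histone mRNA 3′ end formation and decay 0 were called, and 0 passed the adjusted p at any fold (limma, 1 at an unadjusted p below 0.05, median -0.15). Slbp, which binds the stem-loop and carries the mRNA from processing to translation, had 27.0 and 23.1 FPKM in the untreated and 24.1 and 27.0 FPKM in the 5-AZA samples. Lsm10 and Lsm11, subunits of the particle that cleaves histone pre-mRNA, had 13.3 and 12.7 against 10.4 and 12.7 FPKM and 1.30 and 1.29 against 0.816 and 1.43 FPKM. Zfp473, a further factor of this cleavage, had 0.147 and 0.130 against 0.0330 and 0.0675 FPKM and was not tested. Of 20 histone chaperone genes 0 were called (limma, 0 at an unadjusted p below 0.05, median -0.074). Asf1a, Asf1b and the chromatin assembly factor subunits Chaf1a and Chaf1b had log2 fold changes of -0.25, -0.27, -0.057 and -0.56, and none of them passed (adjusted p = 0.16, 0.278, 0.882 and 0.16, limma).

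**Figure D5:**
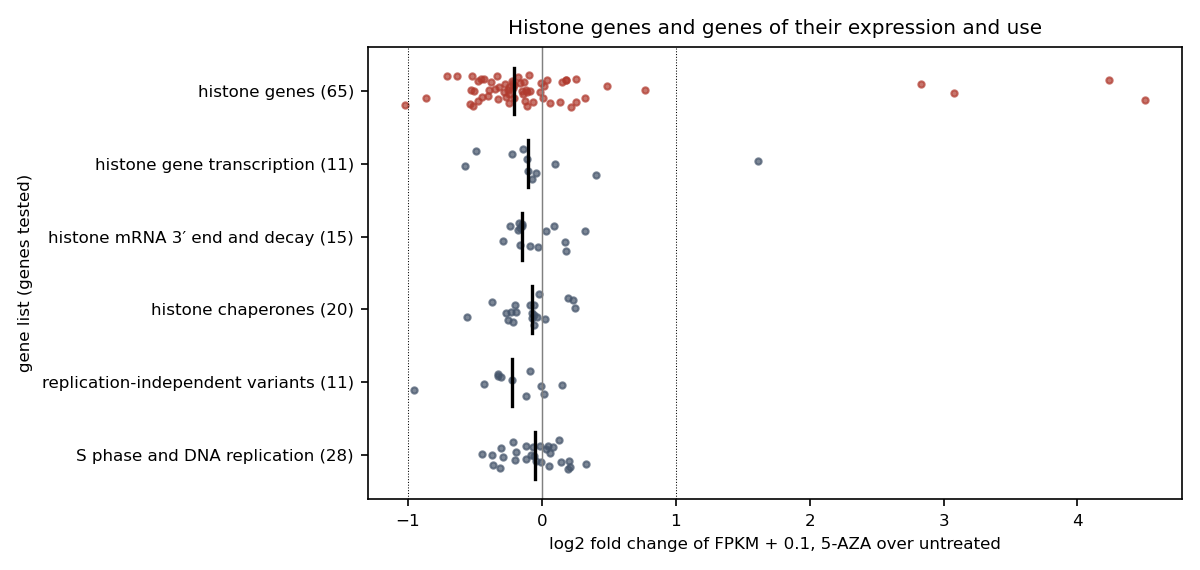
Log2 fold change of FPKM + 0.1 (5-AZA over untreated) of the 65 tested histone genes and of 5 lists of related genes, with 1 point per gene and a black bar at each median. The medians lie between -0.22 and -0.049, E2f2 is the 1 list gene beyond 2-fold, and the 4 histone genes far to the right are Hist3h2ba, Hist1h1t, Hist1h2aa and Hist1h2ba.

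Histone variants made outside replication were also measured. Of 11 tested genes 0 were called (limma, 3 at an unadjusted p below 0.05) and 1 passed the adjusted p, H3f3a, with 880 and 928 FPKM in the untreated and 675 and 663 FPKM in the 5-AZA samples (log2 fold change -0.43, SE 0.10, adjusted p = 0.0155, limma). H3f3b, which encodes the same replacement H3 protein, had 784 and 804 against 674 and 687 FPKM (-0.22, adjusted p = 0.155, limma). H3f3a and H3f3b were each more abundant than any single replication-dependent H3 gene, and neither had its highest value in untreated replicate 1. Each lay below the sum of the 12 replication-dependent H3 genes in every sample. That sum was 1779 and 1308 FPKM in the untreated and 1287 and 1271 FPKM in the 5-AZA samples. H2afz had 156 and 130 against 108 and 118 FPKM, H2afx 35.4 and 30.2 against 24.3 and 28.0 FPKM, and H1f0, the replacement linker histone, 111 and 106 against 98.1 and 101 FPKM. Cenpa, the H3 variant of centromeres, had 7.95 and 6.16 against 6.28 and 6.91 FPKM. These 4 did not pass the adjusted p.

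Genes of S phase and DNA replication gave 0 calls among 28 tested (limma, 4 at an unadjusted p below 0.05), with a median of -0.049. The adjusted p was passed by 1 gene, as lower, against 5.93% of all genes tested. This gene was Tk1 (26.2 and 22.7 against 19.1 and 16.8 FPKM), named after its value was seen. Pcna, the sliding clamp of DNA polymerases, had 93.3 and 83.3 FPKM in the untreated and 70.8 and 71.8 FPKM in the 5-AZA samples (-0.31, adjusted p = 0.0556, limma), and Rrm2, a subunit of ribonucleotide reductase, had 17.0 and 13.3 against 16.2 and 17.0 FPKM (0.14, adjusted p = 0.529, limma).

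The labelled mesenchymal line was checked against its markers. All 12 mesenchymal genes were listed, and they split both ways, with 5 past the adjusted p as higher (1 of them, Thy1, called) and 5 as lower (0 called). Their sum was 9286 and 9326 FPKM in the untreated and 6203 and 6131 FPKM in the 5-AZA samples, most of it from S100a4 (5027 and 5002 against 2758 and 2355 FPKM) and Vim (2268 and 2406 against 1178 and 1380 FPKM). Of the markers of other cells, 8 of 8 for skeletal muscle (summed level 1.44 and 1.01 against 721 and 1117 FPKM) and 5 of 6 for adipocytes (45.3 and 30.1 against 1094 and 1504 FPKM) were called higher. Over all genes tested, 13.1% were called higher and 1.32% lower, while 18.6% passed the adjusted p at any fold as higher and 5.93% as lower. Myod1, Myog, Tnni2, Myh3, Ckm and the adipocyte gene Cidec passed the limit on low values only through their 5-AZA samples. A difference was thus fixed for these by that limit. For chondrocytes 2 were called higher and 3 lower of 5 tested (121 and 108 against 29.5 and 46.0 FPKM). Of 7 immune markers 2 were tested and 1, Cd68, was called higher (list sum 2.13 and 3.20 against 3.20 and 5.19 FPKM), while 3 were listed at 0 in all samples. The part of these cell types in the histone levels was not tested.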

How the data were processed

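RNA of 2 untreated and 2 5-AZA samples was analysed, all in 1 fit. The authors removed ribosomal RNA, made stranded libraries and deposited FPKM values per RefSeq transcript. The submitters' processing notes list Trimmomatic, HISAT2, Bowtie2 2.2.9, eXpress 1.5.1 and mm9, and no coordinates of that build are printed. The deposited lncRNA and circRNA values were not used here. The count test named in the paper could not be run on FPKM.

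Transcripts were summed per gene, log2(FPKM + 0.1) was fitted with limma 3.58.1 (lmFit, eBayes with trend) in R 4.3.3 on genes with a mean of at least 0.1 FPKM, and p-values were adjusted over all 13199 genes by the Benjamini-Hochberg method. A fold change on this scale understates changes of low genes. The fit was tested on simulated data. Input was read with the data.table package, version 1.17.8. RefSeq neighbour order was matched by gene ID, which was found for all 67 members, and RefSeq promoters of build GRCm38.p6 were found for 62.

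Members and lists were chosen with earlier results of these data known. Named members are the 3 highest of each class by mean FPKM, all called members, the highest and lowest change of each class, all H1 genes, all members outside Hist1 and the germ cell members. Named genes of related lists are those called and a fixed set of 20. Other members past the adjusted p and list genes named only as markers were chosen after their values were seen.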

Additional observations from a re-analysis of the deposited data

How the results depend on the processing

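FPKM keeps no read counts, so depth limits the low members to an unknown degree, and 2 samples a group limit every test. No paired analysis was possible because the groups share no replicate numbers. Over 13 alternative fits, of which centring on the median of the histone genes was chosen after seeing the data, the count called higher, 4, became 1 without a limit on low values and 1 with a mean of at least 1 FPKM, ran from 2 to 5 when each sample was left out in turn, and was 3 or 4 under the other settings. The count called lower, 1, became 0 without a limit on low values and 0 after centring on the median of the histone genes, ran from 0 to 2 with each sample left out, and was 9 when the fold limit was dropped, an alternative also chosen after seeing the data. The median log2 fold change of the members ran from -0.37 to 0.036 with each sample left out, the latter without untreated replicate 1. It was -0.31 with samples centred on their medians and -0.25 after quantile normalization, which moved the median of all genes from 0.047 to -0.060 and -0.12. Relative to the median of all genes it was -0.25 in the fit reported, -0.25 with samples centred on their medians and -0.13 after quantile normalization.

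With each sample left out, the class ratios ran from -0.32 to 0.10 for H1, -0.35 to -0.052 for H2A, -0.47 to 0.018 for H2B, -0.48 to -0.032 for H3 and -0.22 to 0.19 for H4. The cluster ratios ran from -0.35 to 0.041 for Hist1, -0.48 to -0.053 for Hist2, 0.35 to 0.65 for Hist3 and -0.25 to 0.34 for Hist4. Without its most abundant member the Hist3 ratio was 2.90, that of Hist3h2ba. For variant 1 of Hist1h2bc the change of 0.51 turned to -0.17 when the transcripts of the gene were summed.

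Of the related lists, E2f2 was the 1 call in histone gene transcription, and the count was 0 with a pseudocount of 1 FPKM, without a limit on low values, with a mean of at least 1 FPKM and after quantile normalization, and 0 to 1 with each sample left out. Replication-independent variants had 1 called lower after quantile normalization and 0 to 1 with each sample left out. Mesenchymal markers had 1 called lower with samples centred on their medians. Adipocyte markers called higher ran from 2 to 6 with each sample left out. Chondrocyte markers called higher ran from 0 to 2 with each sample left out and were 0 without a limit on low values, where 1 was called lower. The 1 immune marker called higher was 0 with a pseudocount of 1 FPKM, without a limit on low values, with samples centred on their medians, after quantile normalization and without the eBayes trend, and 0 to 1 with each sample left out. Of 416 values of these summary results under the alternatives 372 were taken as kept, many of them list counts that stayed at 0. A count was taken as kept where it was equal or moved little, such as 4 becoming 3 or 6. Other values were taken as kept where they stayed within their spread or kept their direction. For the named genes 698 kept their call or the lack of it, 21 lost a call and 4 gained 1. Where a sample was left out, the lone sample of its group was assumed to vary like the other group. The cause of these changes was not tested.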

Other observations

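Other histone genes of germ cells, chosen after the values of the histone clusters were seen, were at or near 0. H2afb1, H2afb2, H2afb3 and H1fnt were listed at 0 in all 4 samples. H2bfm was listed at 0 in both untreated samples and at 0.0341 and 0.0352 FPKM in 5-AZA replicates 101 and 102, Hils1 at 0.0525 FPKM in untreated replicate 1 and at 0 in the other samples, and H1foo at 0.0320 FPKM in 5-AZA replicate 102 and at 0 in the others. These levels lie below the limit of 0.1 FPKM and were not tested.

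Among the genes of histone gene transcription, Ccna2, a cyclin of S phase, had 26.7 and 21.2 FPKM in the untreated and 16.2 and 17.6 FPKM in the 5-AZA samples (log2 fold change -0.49, adjusted p = 0.0295, limma), and E2f1, an S-phase transcription factor, had 5.92 and 6.21 against 4.02 and 4.06 FPKM (-0.57, adjusted p = 0.0253, limma). Both passed the adjusted p under 2-fold and were named after their values were seen.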
